A study of Mus musculus with 6 samples.

Results

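The Nr4a orphan nuclear receptors are the 3 genes Nr4a1 (also called Nur77), Nr4a2 (Nurr1) and Nr4a3 (Nor1). They were taken as every noncontrol probe of the array whose gene name is a member, which gave 3 probes, 1 for each gene, among 41174 noncontrol probes that carry 28786 gene names. The genes were selected on their measured difference between the groups of this series, so their values below are a description and carry no test. Each sample was hybridised alone to a 1-colour Agilent oligonucleotide array.

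The samples are hearts of male C57BL/6 mice without any engineered allele named in the labels. The adrenalectomized mice (3 hearts) had their adrenal glands, the source of corticosterone and aldosterone, removed at 1 month of age, and hearts were taken 6 months afterwards. The sham mice (3 hearts) are described as sham-adrenalectomized, with hearts taken at the same interval. The design text calls the hearts of a group biological replicates. Another label gives an age of 6 months for these mice, and how old they were when hearts were taken is therefore uncertain. The labels mention no hormone replacement.

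Nr4a receptors bind DNA without a known physiological ligand, because bulky side chains fill the pocket in which other nuclear receptors hold a hormone, and their activity is set mainly by how much of the protein is made. They are immediate early genes: cAMP, calcium, growth factors, adrenergic stimulation and stress induce their mRNA quickly and for a short time. Monomers bind the NBRE, an extended single site, dimers bind paired sites, and Nr4a1 and Nr4a2 also pair with the retinoid X receptors. In the pituitary and adrenal cortex they drive Pomc and steroid synthesis genes, where the glucocorticoid receptor opposes them, and in muscle they act on genes of glucose and fat use.

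The first 30 bases of each 60-base probe are shown because every expression value below rests on 1 probe per gene. The probe of Nr4a1 (A_51_P239654) was designed on NM_010444 at chr15:101260484-101260543 of the plus strand. That of Nr4a2 (A_52_P494622) was designed on NM_013613 at chr2:57108976-57109035 of the minus strand. That of Nr4a3 (A_51_P128397) was designed on NM_015743 at chr4:48081632-48084818 of the plus strand, an interval of 3187 bases for a probe of 60. Probe coordinates come from the array design, on mm7, for which no exon or untranslated region annotation was used here. GC content of the whole probes was 45% for Nr4a1, 43.3% for Nr4a2 and 41.7% for Nr4a3.
Nr4a1 probe: ctcttccgctctccttccatgtgtacataa
Nr4a2 probe: aaagaccatgtgactttcaataatgggggt
Nr4a3 probe: agaatcagcctttttggagctgtttgttct

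The promoters are shown because cAMP response elements are the textbook route by which these genes are induced. Each is the RefSeq window of 300 bases, 250 before to 50 after the annotated start, on GRCm38.p6: chr15:101266596-101266895 of the plus strand for Nr4a1, chr2:57123954-57124253 of the minus strand for Nr4a2 and chr4:48045055-48045354 of the plus strand for Nr4a3. Capitals mark TGACG, the core of the cAMP response element, or CGTCA, the same core on the opposite strand.
Nr4a1 promoter: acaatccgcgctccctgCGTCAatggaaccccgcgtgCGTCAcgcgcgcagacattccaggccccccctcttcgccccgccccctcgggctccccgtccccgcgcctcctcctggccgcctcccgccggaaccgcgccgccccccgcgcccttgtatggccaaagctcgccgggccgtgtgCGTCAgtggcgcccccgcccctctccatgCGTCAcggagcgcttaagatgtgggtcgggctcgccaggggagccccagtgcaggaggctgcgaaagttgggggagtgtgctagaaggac
Nr4a2 promoter: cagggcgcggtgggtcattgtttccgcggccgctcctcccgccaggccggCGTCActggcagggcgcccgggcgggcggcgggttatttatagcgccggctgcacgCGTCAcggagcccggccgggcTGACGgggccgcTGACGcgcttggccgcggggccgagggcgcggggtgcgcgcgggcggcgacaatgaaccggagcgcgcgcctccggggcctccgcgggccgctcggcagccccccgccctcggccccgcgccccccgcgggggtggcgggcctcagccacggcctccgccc
Nr4a3 promoter: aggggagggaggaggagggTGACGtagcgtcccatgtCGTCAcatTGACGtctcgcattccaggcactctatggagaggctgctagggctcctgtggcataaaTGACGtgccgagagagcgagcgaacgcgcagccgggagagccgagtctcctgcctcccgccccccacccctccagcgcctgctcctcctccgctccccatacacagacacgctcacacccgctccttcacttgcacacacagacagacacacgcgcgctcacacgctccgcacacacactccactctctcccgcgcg

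All 3 promoters held the core TGACG 4 times, counting both strands. Of 32851 promoters of the same length, 20.8% held it at least once and 0.231% held it 4 or more times. In Nr4a1 the cores started at -233, -213, -69 and -40 from the annotated start, all on the opposite strand. In Nr4a2 they started at -200 and -144 on the opposite strand and at -123 and -111 on the gene's own strand. In Nr4a3 they started at -231, -205 and -147 on the gene's own strand and at -213 on the opposite strand. GC content was 72.3% for the Nr4a1 window, 81.7% for that of Nr4a2 and 64.7% for that of Nr4a3, against a median of 52.7% over all promoters, and the core itself contains CG. The core was found in 9 of 11 promoters of genes listed as rapidly induced by cAMP and in 17 of 26 promoters of immediate early genes.

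None of the 3 windows held the full palindrome TGACGTCA, which contains the core and occurs in 1.79% of promoters. None held the Nr4a monomer site AAAGGTCA (1.51% of promoters), the AP-1 site TGANTCA (7.81%), the Egr1 site GCGTGGGCG (0.612%), the CArG box of serum response factor (1.63%) or the palindromic glucocorticoid response element (0.00913%). A match is a run of letters and not a measured binding site, and these searches say nothing about sequence outside the windows.

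The groups overlapped in array brightness, but not in the share of spots well above background. The 75th percentile of processed signal was 768 to 839 on adrenalectomized arrays, against 644 to 924 on sham arrays, and 60.5% to 66.8% of spots were well above background on the adrenalectomized arrays, against 57.7% to 60.2% on the sham arrays. The lowest correlation between any pair of arrays was 0.982. Adrenalectomized replicate 1 shared slide 1 with the 3 sham arrays, and adrenalectomized replicates 2 and 3 were on slide 2. The slide 2 arrays had the highest shares of spots well above background, 66.8% and 63.2%. All 6 arrays were scanned on the same day. Values below are log2 processed signal minus the 75th percentile of the array, so 0 is the brightness of the 75th percentile, and differences are adrenalectomized minus sham. With 3 arrays in each group, precision is limited by the number of arrays. A gene was tested where every array of 1 group or the other had it well above background, which held for 16952 genes. Among them limma with Benjamini-Hochberg adjustment at 0.05 called 5 higher (0.0295%) and 2 lower (0.0118%) after adrenalectomy. Before adjustment, p was under 0.05 for 1062 higher (6.26%) and 1016 lower (5.99%) genes. The median difference of all tested genes was 0.03, and 43.4% of them were lower.

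Nr4a1 was well above background on all 6 arrays. Its processed signal was 3515, 3969 and 7291 on adrenalectomized replicates 1, 2 and 3, and 28024, 6159 and 16396 on sham replicates 1, 2 and 3. On the log2 scale this was 2.19, 2.24 and 3.18 in adrenalectomized hearts, against 5.39, 3.26 and 4.15 in sham hearts. All 3 adrenalectomized hearts lay below all 3 sham hearts once the arrays were scaled, but only just: the brightest adrenalectomized heart and the dimmest sham heart were 0.074 apart, and before scaling adrenalectomized replicate 3 was brighter than sham replicate 2. Nr4a1 averaged 2.54 ± 0.56 in adrenalectomized hearts and 4.27 ± 1.07 in sham hearts (SD, n = 3 each). The difference was -1.73 (SE 0.54), a ratio of 0.302 adrenalectomized over sham, or 3.31-fold lower. On this contrast, which the gene was selected on, 5 of the 16952 tested genes had a lower difference.

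Nr4a2 was likewise well above background on every array. Its processed signal was 96.5, 170 and 167 on adrenalectomized replicates 1, 2 and 3, and 376, 166 and 288 on sham replicates 1, 2 and 3. The log2 values were -2.99, -2.31 and -2.26 in adrenalectomized hearts, against -0.83, -1.95 and -1.68 in sham hearts. The scaled groups did not overlap and were 0.31 apart at their nearest hearts, whereas the unscaled signal of sham replicate 2 was slightly below that of adrenalectomized replicates 2 and 3. The lowest spot, on adrenalectomized replicate 1, also had the highest local background of the Nr4a2 spots, a median of 103 against 47 to 70 on the other arrays; its part in the low value was not tested. Nr4a2 averaged -2.52 ± 0.41 in adrenalectomized hearts and -1.49 ± 0.59 in sham hearts (SD, n = 3 each), a difference of -1.03 (SE 0.33). The ratio was 0.489 adrenalectomized over sham, or 2.05-fold lower. For this gene too, selected on the same contrast, the rank is a description: 75 tested genes had a lower difference.

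Nr4a3 was well above background on 1 array only, adrenalectomized replicate 1, with a processed signal of 91.4 and a log2 value of -3.07. The other 5 values were surrogates that the scanner software writes for spots near background. They were 6.93 and 7.24 on adrenalectomized replicates 2 and 3, against 7.85, 8.82 and 8.62 on sham replicates 1, 2 and 3. No group had Nr4a3 well above background on all 3 arrays, so the gene did not enter the fit and no fold is given. The single bright array was the one with the lowest Nr4a1 and Nr4a2.

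**Figure D1:**
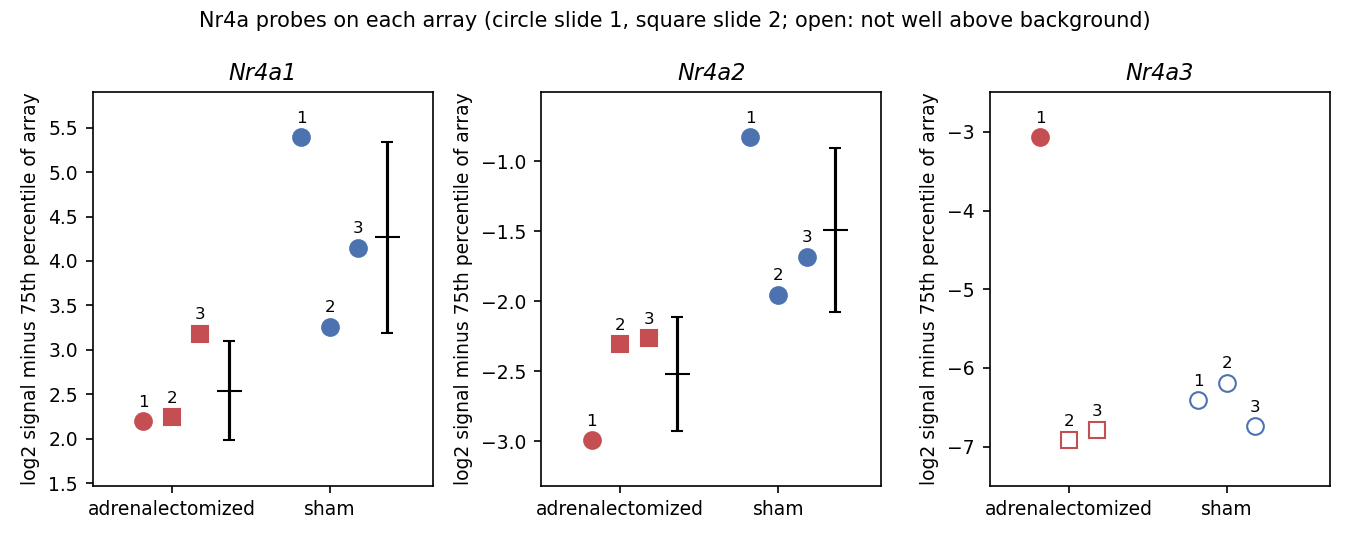
The vertical axis is log2 processed signal minus the 75th percentile of the array, for Nr4a1, Nr4a2 and Nr4a3, with adrenalectomized hearts in red at left and sham hearts in blue at right; numbers are replicates, circles slide 1, squares slide 2, open symbols spots not well above background, and black bars the mean ± SD (n = 3). Sham replicate 1 is the highest for Nr4a1 (5.39) and Nr4a2 (-0.83), and Nr4a3 has a measured value only on adrenalectomized replicate 1 (-3.07).

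In all, 2 of the 3 members passed the filter on dim probes, and both had groups that did not overlap in the lower direction, as did 1347 of all tested genes (7.95%); 1759 genes (10.4%) had no overlap in the higher direction. Since the genes were selected on this contrast, nothing is read from that count. No member spot was saturated or flagged as an outlier. In RNA from heart tissue, fewer cells that hold a transcript and less of it per cell cannot be told apart. Signals of different probes are not compared with each other.

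Nr4a1 and Nr4a2 placed the 6 hearts in the same order. From high to low it was sham replicates 1, 3 and 2, then adrenalectomized replicates 3, 2 and 1. The spread inside each group was wide. Nr4a1 spanned 1.98-fold among the adrenalectomized hearts and 4.39-fold among the sham hearts, where the median tested gene spanned 1.23-fold. The SD of Nr4a1 was larger than that of 95.04% of tested genes in adrenalectomized hearts and 99.2% in sham hearts. Nr4a2 spanned 1.66-fold among the adrenalectomized hearts and 2.18-fold among the sham hearts, and its SD was larger than that of 90.5% and 96.2% of tested genes in adrenalectomized and sham hearts.

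Sham replicate 1 set much of the size of both differences. Without it Nr4a1 was 2.24-fold lower, a difference of -1.16, and Nr4a2 was 1.63-fold lower, a difference of -0.70. Without sham replicate 2, the lowest sham heart, the difference was -2.23 for Nr4a1 (4.69-fold lower) and -1.27 for Nr4a2 (2.41-fold lower). Within slide 1, where adrenalectomized replicate 1 is the only adrenalectomized heart, the difference was -2.07 for Nr4a1 and -1.50 for Nr4a2. Under normexp background correction, which starts from the mean spot signal and the local background, the Nr4a1 difference was -1.37 and the groups overlapped, with 3.103 for the highest adrenalectomized heart and 3.025 for the lowest sham heart.

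**Figure D2:**
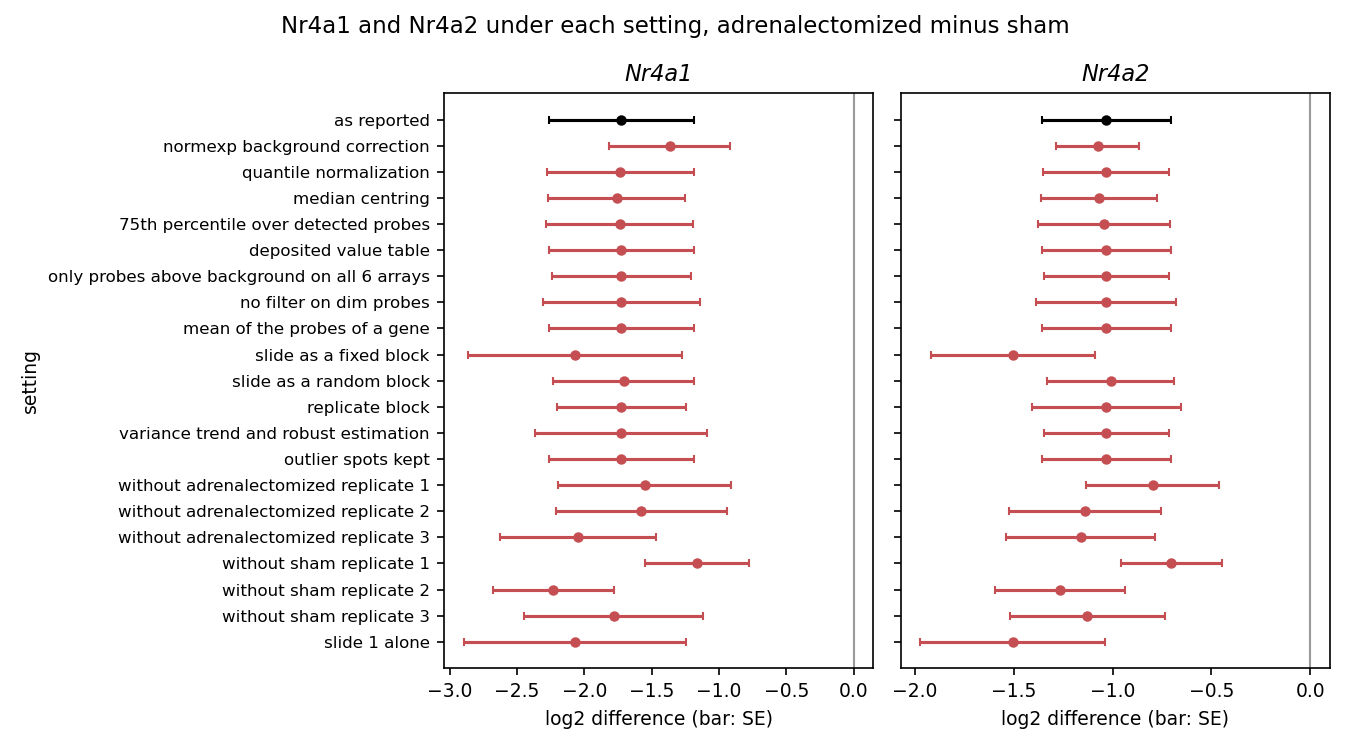
Points are the log2 difference, adrenalectomized minus sham, of Nr4a1 at left and Nr4a2 at right, and bars are its SE; each line down the page is 1 way of processing the arrays or 1 array left out, with the values of the text in black. All points are below 0, from -2.23 to -1.16 for Nr4a1 and from -1.50 to -0.70 for Nr4a2, and both ends nearest 0 are the fits without sham replicate 1.

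Among the other nuclear receptors, 45 genes were listed, all on the array, and 32 were tested. None passed the adjusted threshold, 12 were higher and 20 lower, and the median difference was -0.07, beside 0.03 for all genes. The count and median include Nr6a1 (0.26), which was well above background on all 3 adrenalectomized arrays but only 1 sham array. It entered the fit through the group where it was higher, so no size is read from its difference. At an unadjusted p under 0.05, 4 of the 32 were lower and 1 higher, beside 5.99% and 6.26% of all genes. The 4 were Thra and Thrb, the thyroid hormone receptors, Vdr, the vitamin D receptor, and Nr1d1, the clock repressor Rev-erb alpha. Thra had 3.89, 4.06 and 4.45 in adrenalectomized hearts, against 4.73, 4.81 and 4.61 in sham hearts, and the groups did not overlap. Its difference was -0.58 (SE 0.16, limma adjusted p = 0.269). Thrb differed by -0.51 (limma adjusted p = 0.2996), Vdr by -0.57 (limma adjusted p = 0.310) and Nr1d1 by -0.39 (limma adjusted p = 0.355), each without overlap of the groups. The array order of these genes was not that of the Nr4a genes: sham replicate 2 was the highest heart for Thra, Vdr and Nr1d1. Nr5a2, a receptor of liver and steroid-producing tissue, was higher by 0.71 (SE 0.29, limma adjusted p = 0.398). Nr3c1, the glucocorticoid receptor, had 2.05, 2.05 and 2.504 in adrenalectomized hearts and 2.13, 2.08 and 2.19 in sham hearts, a difference of 0.07 (SE 0.15).

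**Figure D3:**
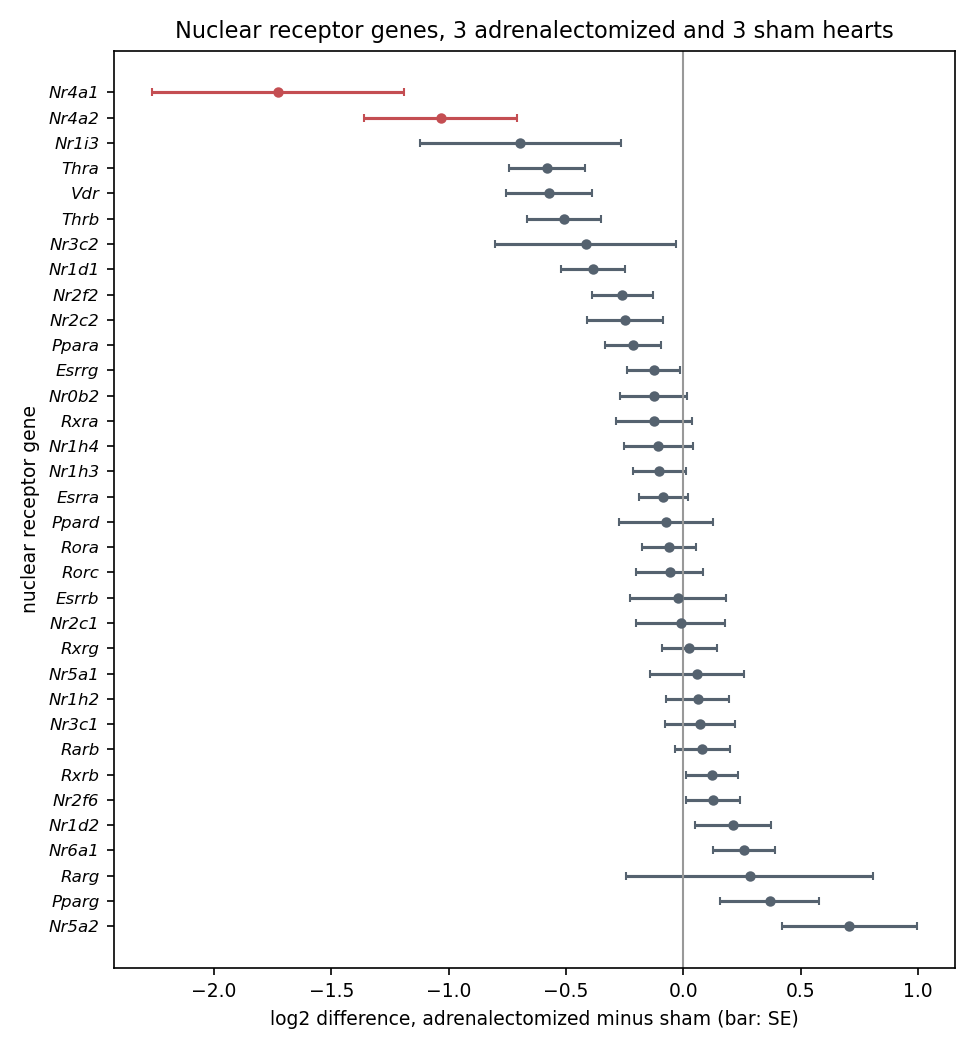
Each line is a nuclear receptor gene tested on this array, with its log2 difference, adrenalectomized minus sham (point), and SE (bar, 3 hearts in each group); Nr4a1 and Nr4a2 are in red. They have the lowest differences drawn, -1.73 and -1.03, as genes selected for those values, and Nr5a2 has the highest (0.71). Nr6a1 is drawn too, but it was well above background on only 1 sham array and no size is read from it.

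The retinoid X receptors, which pair with Nr4a1 and Nr4a2, had overlapping groups. Rxra had 3.48, 3.49 and 3.84 in adrenalectomized hearts, against 3.82, 3.90 and 3.48 in sham hearts, with a difference of -0.13 (SE 0.16). Rxrb differed by 0.12 (SE 0.11) and Rxrg by 0.02 (SE 0.12). Of 16 listed partners and coregulators 14 were tested, 6 higher and 8 lower, with a median of -0.03 and none past the adjusted threshold. Ncor1, a corepressor of nuclear receptors, had the smallest p of the list: it measured 2.89, 2.86 and 3.11 in adrenalectomized hearts, against 3.23, 3.28 and 3.29 in sham hearts, without overlap. Its difference was -0.32 (SE 0.11, limma adjusted p = 0.341). The coactivator Ncoa1 and the orphan receptor Nr2f2 both differed by -0.26, with overlapping groups. No group had Nr0b1 or Nr2f1 well above background on all 3 arrays, so they were not tested.

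Upstream of the Nr4a genes, 28 genes of cAMP, calcium and serum signalling were listed, 27 were on the array and 25 were tested. None passed the adjusted threshold, 9 were higher and 16 lower, and the median was -0.11. Mef2c, of a family that carries calcium signals to the Nr4a1 promoter in T cells, had 0.86, 1.03 and 1.43 in adrenalectomized hearts, against 1.91, 2.21 and 1.49 in sham hearts. The groups did not overlap, and the difference was -0.76 (SE 0.22, limma adjusted p = 0.285). The acetyltransferase Ep300 differed by -0.37 (limma adjusted p = 0.365), also without overlap. Creb1, which binds cAMP response elements, had -0.57, -0.34 and 0.19 in adrenalectomized hearts and 0.25, 0.57 and -0.21 in sham hearts, overlapping, with a difference of -0.45 (SE 0.26, limma adjusted p = 0.526). The calcineurin subunit Ppp3ca differed by -0.29 and its target Nfatc1 by -0.26. Camk4 and Elk1 were not tested.

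Genes that cAMP induces quickly were mostly lower, without a call. Of 15 listed genes 13 were tested, 2 higher and 11 lower (43.4% of all tested genes were lower), with a median of -0.20. At an unadjusted p under 0.05, 4 were lower, beside 5.99% of all genes. Under normexp background correction the list median was -0.06, beside -0.05 for all genes. Gem, a small GTPase of calcium channels, had -2.09, -2.36 and -2.13 in adrenalectomized hearts, against -1.49, -1.84 and -1.30 in sham hearts, without overlap, and differed by -0.65 (SE 0.16, limma adjusted p = 0.244). Pde4d, which breaks down cAMP, also did not overlap and differed by -0.98 (SE 0.28, limma adjusted p = 0.271). Pde4b, which breaks down cAMP too, was higher by 0.40 (SE 0.18, limma adjusted p = 0.421), with overlapping groups. Ppargc1a, the coactivator of mitochondrial genes, differed by -0.86 (SE 0.29, limma adjusted p = 0.329), with overlapping groups. Crem, whose short product represses cAMP-responsive genes, was the other higher gene of the list. It had 0.33, 0.14 and 0.68 in adrenalectomized hearts and 0.08, 0.09 and 0.01 in sham hearts, without overlap. Its difference was 0.32 (SE 0.15, limma adjusted p = 0.442). Per1, induced by both cAMP and glucocorticoid, differed by -0.06 (SE 0.24, limma adjusted p = 0.947).

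Fos, an AP-1 subunit and immediate early gene, resembled the Nr4a genes array by array. It had -3.92, -3.08 and -3.03 in adrenalectomized hearts, against 0.37, -3.23 and -0.98 in sham hearts. Sham replicates 1 and 3 were far above the rest, while sham replicate 2 lay among the adrenalectomized hearts. The difference was -2.06 (SE 0.83, limma adjusted p = 0.393). Atf3, a stress-induced factor, had -0.82, -0.40 and -0.04 in adrenalectomized hearts and 1.48, -0.51 and 0.52 in sham hearts, again with sham replicates 1 and 3 highest and replicate 2 low, and differed by -0.91 (SE 0.48, limma adjusted p = 0.489). Btg2 and Ccn1 showed the same top pair, with differences of -0.56 and -0.54.

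Of 32 immediate early genes 27 were tested; 9 were higher and 18 lower, none passed the adjusted threshold, and 5 were lower at an unadjusted p under 0.05, beside 5.99% of all genes. The 5 were Fos, Csrnp1 (-0.43, limma adjusted p = 0.310), Klf4 (-0.51, limma adjusted p = 0.363), Zfp36 (-0.46, limma adjusted p = 0.363) and Junb (-0.51, limma adjusted p = 0.371). Csrnp1, Zfp36 and Junb had groups without overlap, as did 7.95% of all tested genes in the lower direction. Egr1, a zinc finger factor, had 0.70, 1.34 and 1.49 in adrenalectomized hearts, against 1.40 and 1.91 on sham replicates 2 and 3. Its spot on sham replicate 1 was flagged as an outlier and left out; kept, it read 2.75, the highest of the 6. The fitted difference without it was -0.48 (SE 0.28, limma adjusted p = 0.546). Fosb (0.55), Klf2 (0.29) and Dusp2 (0.22) were among the genes with a higher mean, all with overlapping groups. Fosb was well above background on only 2 sham arrays and entered the fit through the adrenalectomized group. It had -5.09 on sham replicate 2, against -2.39 and -2.91 on sham replicates 1 and 3, so no size is read from its difference. Fosl1, Egr3, Egr4, Npas4 and Ptgs2 were not tested.

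Part of the list shared the highest or lowest hearts of the Nr4a genes. Sham replicate 1 was the highest array for 9 of the 27 genes (33.3%), beside 13.8% of all tested genes, and adrenalectomized replicate 1 was the lowest for 12 (44.4%), beside 13.1%. Sham replicates 1 and 3 were the top pair for 10 genes (37.0%), beside 3.77% of all genes, and for 5 of the 13 rapidly cAMP-induced genes (38.5%). Fos and Dusp1 belong to both lists and are in both counts. As a distance from each gene's sham mean, the list's median was -0.27, -0.28 and -0.13 on adrenalectomized replicates 1, 2 and 3, and 0.03, -0.11 and -0.03 on sham replicates 1, 2 and 3. The median difference was -0.13, beside 0.03 for all genes. Under normexp background correction it was -0.06, beside -0.05 for all genes, and within slide 1 it was -0.31.

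**Figure D4:**
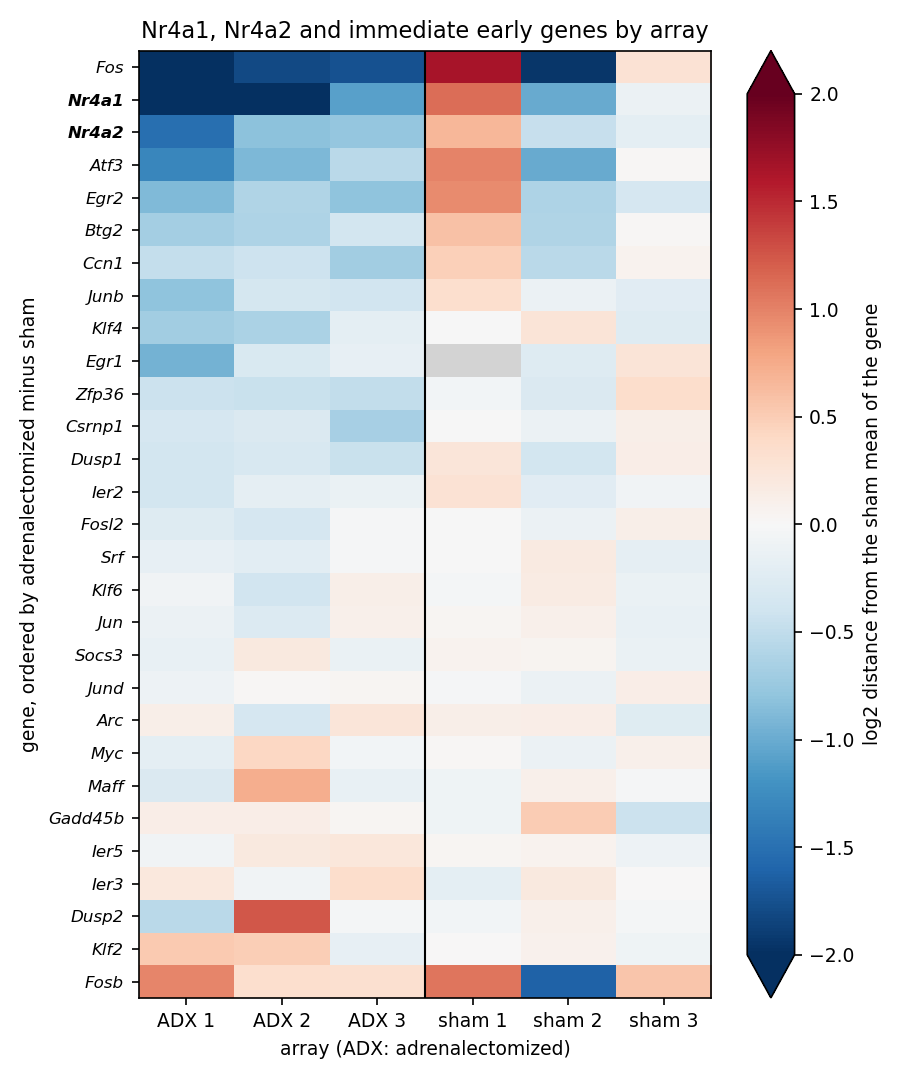
Colours give the log2 distance of each array from the gene's sham mean, blue below and red above, limited to 2 in either direction; the 3 adrenalectomized arrays are at left, the 3 sham arrays at right, and genes are ordered by their difference. Fos, Nr4a1, Nr4a2 and Atf3 share a pale or red sham replicate 1 and 3 and a blue sham replicate 2, and the grey cell is the Egr1 spot left out.

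Downstream, genes reported as Nr4a targets did not share a direction. Of 18 targets in muscle and liver metabolism 17 were tested, 7 higher and 10 lower, with a median of -0.09 and 1 lower at an unadjusted p under 0.05. That gene was Ppargc1a. Besides Ppargc1a, which is also in this list, Pck1, a gluconeogenic enzyme that fat cells make too, had 2.14, 4.13 and 4.11 in adrenalectomized hearts, against 0.68, 2.91 and 1.98 in sham hearts, overlapping, a difference of 1.60 (SE 0.71, limma adjusted p = 0.425). Lpin1, a phosphatidate phosphatase, was higher by 0.30 without overlap (limma adjusted p = 0.407), and Ucp3 by 0.49 with overlap. Of 10 steroidogenic targets only 3 were tested: Star differed by -0.44, Cyp17a1 by -0.25 and Pomc by 0.01, none at an unadjusted p under 0.05. For the rest of that list, no group had the gene well above background on all 3 arrays, or the gene had no probe.

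Of 9 targets known from dopamine neurons 5 were tested, 1 higher and 4 lower. The 1 higher was Aldh1a1, which makes retinoic acid: it had 3.03, 3.88 and 3.28 in adrenalectomized hearts, against 2.26, 2.71 and 2.81 in sham hearts, without overlap, a difference of 0.80 (SE 0.25, limma adjusted p = 0.2998). Ddc differed by -0.29, Gch1 by -0.07 and Slc18a2 by -0.05, and Th and Slc6a3 were not tested. Of 11 immune targets 6 were tested, 5 higher and 1 lower, with a median of 0.31. The count and median include Foxp3 (0.83), which was well above background on all 3 adrenalectomized arrays but only 1 sham array. It entered the fit through the group where it was higher, so no size is read from its difference. Havcr2, an inhibitory receptor of T cells and macrophages, had -2.54, -2.82 and -2.76 in adrenalectomized hearts, against -3.00, -3.27 and -3.95 in sham hearts, without overlap (difference 0.70, SE 0.24, limma adjusted p = 0.345). Tnfrsf9 differed by 0.34, Klf2 by 0.29 and Bcl2l11 by -0.16. All 5 growth targets were tested, with a median of 0.02, none had an unadjusted p under 0.05, and Bcl2 (-0.30) and Ccnd1 (0.17) were the farthest from 0.

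The scanner files describe 2 further genes as lying downstream of Nur77. They were chosen after their annotation was seen. Ndg2, now Chchd10, a protein of mitochondria, had 8.90, 8.69 and 8.74 in adrenalectomized hearts and 9.13, 8.96 and 8.82 in sham hearts. The groups overlapped, with a difference of -0.19 (SE 0.12, limma adjusted p = 0.557). Ndg1, now Khdc1a, differed by 0.08 (SE 0.25, limma adjusted p = 0.920) on 1 of its 2 probes, and its other probe was not well above background on any array.

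Glucocorticoid readouts, genes that the glucocorticoid receptor is known to induce together with the receptors themselves, were lower in 7 of 8 tested. Of all tested genes 43.4% were lower. The list median was -0.22, beside 0.03 for all genes, and none had a p under 0.05 before or after adjustment. The 7 include the receptor gene Nr3c2 (-0.42), which had -2.34 on sham replicate 1, against -3.65 and -3.91 on sham replicates 2 and 3. Tsc22d3 (GILZ) had 2.96, 2.80 and 2.76 in adrenalectomized hearts, against 3.06, 3.24 and 2.97 in sham hearts, without overlap, a difference of -0.25 (SE 0.12, limma adjusted p = 0.451). Sgk1 differed by -0.19 and Klf9 by -0.17, also without overlap, as did 7.95% of all tested genes in the lower direction. Dusp1, an immediate early phosphatase that glucocorticoid also induces, differed by -0.38 (SE 0.17, limma adjusted p = 0.434) with overlap, and had its highest values, 2.96 and 2.86, on sham replicates 1 and 3.

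**Figure D5:**
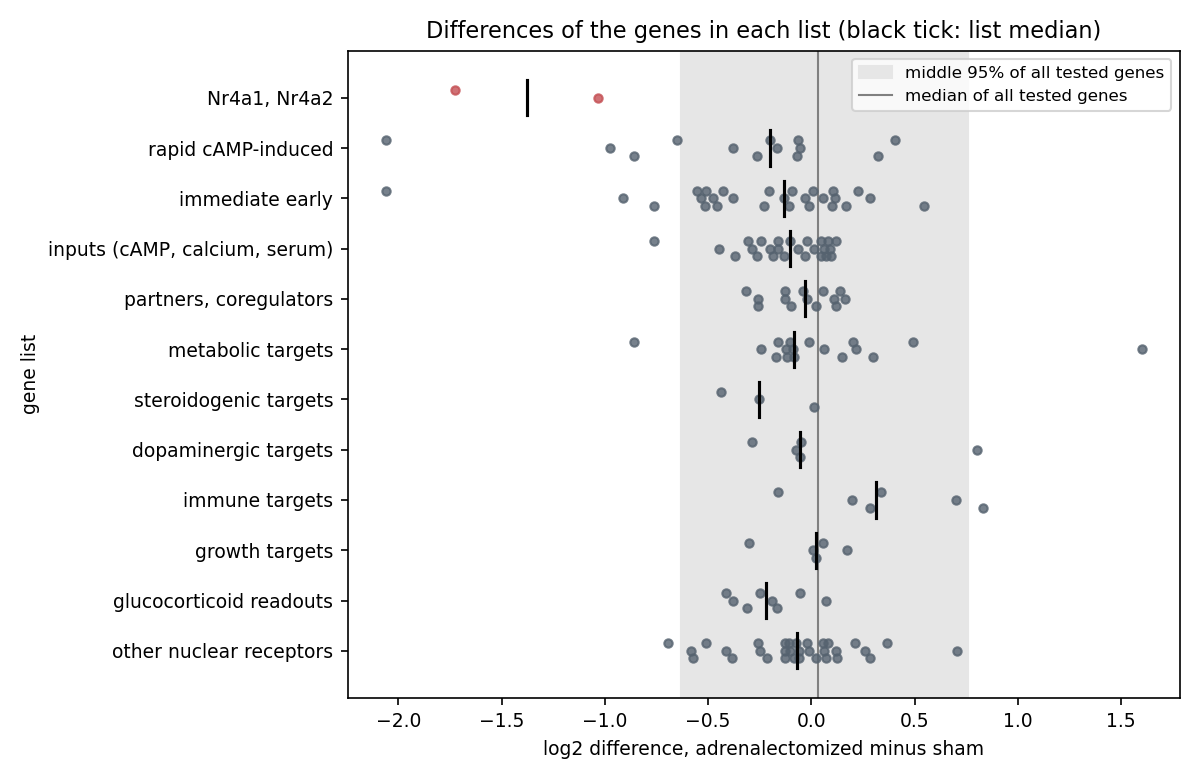
Points are the log2 differences, adrenalectomized minus sham, of the tested genes of each list, black ticks the list medians, the grey line the median of all tested genes (0.03) and the band the middle 95% of them. Nr4a1 and Nr4a2 lie left of the band, and Fos (-2.06) is the lowest point of the cAMP-induced and immediate early lists.

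By likeness over the 6 arrays, a description in which group and single hearts are not separated, the genes nearest to Nr4a1 among 11619 compared were Adrb1 (Pearson r 0.986), Klhl20 (0.980), Lrch4 (0.967), Ddrgk1 (0.962) and Tjp1 (0.959), and 47 genes had an r over 0.9. Adrb1, the main adrenergic receptor of the heart, had 0.89, 0.87 and 1.02 in adrenalectomized hearts, against 1.30, 1.01 and 1.08 in sham hearts. Its difference was -0.20 (SE 0.12, limma adjusted p = 0.532), and its range was far smaller than that of Nr4a1. Nearest to Nr4a2 were Ccn2 (0.988), D1Pas1 (0.982), Junb (0.975), Klhl20 (0.974) and Asah2 (0.970), with 38 genes over 0.9. Ccn2, a matrix protein also called connective tissue growth factor, had 3.91, 4.21 and 4.28 in adrenalectomized hearts, against 4.98, 4.52 and 4.66 in sham hearts, the same order of arrays as Nr4a2. Its difference was -0.59 (SE 0.16). D1Pas1 is a near-identical copy of Ddx3x, so its probe may read both.

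Cell type markers differed in their means between the groups, and none passed the adjusted threshold. The hearts had the defining genes of cardiomyocytes: Myh6 measured 9.30, 9.12 and 9.48 in adrenalectomized hearts and 9.60, 9.62 and 9.19 in sham hearts. Cardiomyocyte markers were lower in 5 of 7, with a median of -0.16, and Tnni3 (-0.29) was lower without overlap. The summed signal of all 7, in multiples of the 75th percentile, was 2700 to 3006 in adrenalectomized hearts, against 2919 to 3376 in sham hearts. Of all tested genes 43.4% were lower, and 7.95% were lower without overlap of the groups. All 5 atrial markers were lower without overlap, with a median of -0.61, and their summed signal, in multiples of the 75th percentile, was 1106, 1134 and 1073 in adrenalectomized hearts, against 1705, 2107 and 1358 in sham hearts. Among the sham hearts the atrial sum was highest on replicate 2, as were the sums of every cell type below except erythroid cells. The cardiomyocyte and erythroid sums were highest on sham replicate 1. Endothelial markers were lower in 6 of 7 (sums of 57.7 to 70.1, against 78.5 to 85.1 in sham), and those of fibroblasts in 7 of 7 (176 to 200.1, against 208 to 255 in sham). Smooth muscle and pericyte markers were lower in 6 of 6, though Pdgfrb (-0.009) and Acta2 (-0.04) barely differed. Their sum was 68.8 to 96.0 in adrenalectomized hearts, against 79.8, 145 and 70.6 on sham replicates 1, 2 and 3. Macrophage markers were lower in 7 of 8 (at most 18.6, against at least 18.8 in sham). All 5 tested adipocyte markers were higher, with a median of 1.79 (335 to 545, against 266 to 371 in sham). Most of each sum was Fabp4, which differed by only 0.30, whereas Adipoq, Plin1, Cidec and Ucp1 differed by 1.39, 1.79, 1.90 and 2.88. The 3 tested erythroid markers were higher too (298 to 845, against 383 to 586 in sham), as were 4 of 5 T cell markers (0.591 to 0.831, against 0.457 to 0.663 in sham). Of 3 neutrophil markers 2 were lower (0.802 to 1.11, against 0.831 to 1.46 in sham). The neutrophil count and sums include S100a8 (-0.23), which was well above background on all 3 sham arrays but only 2 adrenalectomized arrays. It entered the fit through the group where it was higher, so no size is read from its difference. No group had Lep, Cd8a or Csf3r well above background on all 3 arrays. The part of these cell types in the Nr4a1 and Nr4a2 values was not tested.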

How the data were processed

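Hearts of 3 adrenalectomized and 3 sham mice were profiled. RNA (50 ng) was amplified and 5 µg of cDNA labelled with Cy3, per the labels' protocols. Feature Extraction 9.5.3.1 read the mm7-design arrays, per the file headers (version 9.5 in the submitters' processing notes). Per the file headers, the deposited processed signal is an intensity after background subtraction and detrending, with surrogates for 15.3% to 22.0% of spots; the deposited value table equals it at all 45018 spots. Here log2 intensity minus the 75th percentile of each array was fitted (lmFit, eBayes; limma 3.58.1, R 4.3.3; Benjamini-Hochberg adjustment; tested on simulated data), leaving out control spots and 80 to 133 outlier spots per array. A gene was its brightest probe, among probes that every array of 1 group or the other had well above background. RefSeq named 22951 probes (55.7%). Proteins were not analysed here.

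The members, gene lists, cell type markers, motifs and rules were chosen with earlier results of these data known. Genes named in the text are the members, per list up to 4 genes with the smallest p, Creb1, Crem, Fos, Egr1, Per1, Nr3c1 and the retinoid X receptors, and the 5 genes most like each member; others (such as Ccn1, Btg2, Fosb, Dusp1 or Adrb1) were named after their values were seen. Alternatives changed background correction, scaling, filter, probe choice, block and outlier handling, or left out 1 array; slide 1 alone was added after seeing the data.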

Additional observations from a re-analysis of the deposited data

How the results depend on the processing

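The direction of Nr4a1 and Nr4a2 is the one they were selected on, and no alternative turned it. Several alternatives could not move these differences (-1.73 for Nr4a1 and -1.03 for Nr4a2). The filters and the averaging of probes leave a gene with 1 probe as it is. The replicate block is balanced over the groups, and the variance trend with robust estimation changes only the SE. The deposited values equal the scanner signal, and no member spot was an outlier. Leaving out 1 array gave -2.23 to -1.16 for Nr4a1 and -1.27 to -0.70 for Nr4a2. Nr4a3 did not enter the fit and has no alternative values, and no member has another probe to try. Replicate numbers did not pair the samples: deviations of same-numbered arrays correlated at 0.157, 0.163 and -0.160.

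The counts of called genes depended on the processing. The 5 genes higher became 1220 under normexp background correction, 3 under median centring, 2 under quantile normalization and 41 within slide 1 alone. They became 0 with the percentile over detected probes, when all 6 arrays had to be above background, without a filter on dim probes, with a gene's probes averaged, with slide as a fixed block, with the replicate block and with outlier spots kept. Leaving out 1 array gave 0 to 39. The 2 genes lower became 4734 under normexp, 7 with a variance trend and robust estimation, 4 under median centring, and 1 when all 6 arrays had to be above background, without a filter, with slide as a fixed block and with the replicate block. Leaving out 1 array gave 1 to 6. The causes were not tested.

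The immediate early median ranged from -0.31 (slide 1 alone) to -0.06 (normexp), and the rapidly cAMP-induced median from -0.35 (without sham replicate 2) to -0.06 (normexp). Under normexp the median of all tested genes was -0.05, close to that of both lists. Slide 2 holds no sham array, so its hearts cannot be compared within a slide. Normexp gave -1.37 for Nr4a1 and -1.08 for Nr4a2. Nr4a3 was well above background on 1 array only, which leaves it without a measured difference.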
